A study of Danio rerio with 4 samples.

Results

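Chemokines, cytokines and their receptors were followed in livers of fasting zebrafish larvae, as the rows of the count table whose gene name belongs to the chemokine, interleukin, tumour necrosis factor (TNF), colony-stimulating factor or Mif families. The rule took 161 of 32058 rows, of which 91 were ligands and 70 were receptors. Lipofermata-treated larvae received 5 μM of this compound, an inhibitor of the fatty acid transporter FATP2, for 48 h from 4 days post fertilization (dpf). The vehicle larvae received the solvent, DMSO, over the same time. All larvae carried the AB genotype by their labels, were kept without food and gave their livers at 6 dpf. Each library also held EGFP counts, and no reporter line is given for these libraries in the sources used here. Each group had 2 libraries, each from the livers of 30 larvae. Whether the libraries came from separate clutches is not given in the sources used here, so the p-values measure the spread between these libraries, which may be technical.

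Chemokines are small secreted proteins that guide leukocytes and other migrating cells through receptors coupled to G proteins, while atypical receptors bind chemokines without that signal and clear them. Interleukins and colony-stimulating factors act mostly through receptors that use Janus kinases and STAT factors, and TNF ligands through receptors that reach NF-κB or caspases. In the liver, macrophages, endothelial cells, stellate cells and hepatocytes all make or receive such signals.

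The lipofermata libraries held 17326660 and 16104812 counts and the vehicle libraries 19368695 and 14997821. Levels are CPM, counts relative to library size after TMM scaling (trimmed mean of M-values), and gene length was not corrected for, so levels are not set against each other between genes. A count of 3 corresponded to 0.150 to 0.245 CPM. The test was the quasi-likelihood F test of edgeR, a gene rose or fell where its p adjusted over all 14925 genes tested was under 0.1, and fold changes are log2 of lipofermata over vehicle. With 2 libraries a group, an exact two-sided permutation test could not give a p below 0.333. Hepatocyte markers were abundant in all 4 libraries, with 58623 and 61356 CPM over 16 genes with lipofermata, against 81643 and 96313 CPM with vehicle. The first vehicle library stood apart in the chemokine and cytokine genes and in macrophage markers, given further on. Of 10 tested neutrophil markers, it was at least 2-fold above the second in 1, mmp13a, at 2 and 0 counts. The neutrophil list also holds cpa5, which is on the pancreas and intestine list too and had 348 and 736 CPM with vehicle. The first vehicle library was at least 2-fold above the second in 31.7% of the tested members, against 6.71% of all genes tested. The second was at least 2-fold above the first in 0 of 63 members, against 4.15% of all genes. Many, though not all, of the results that rest on this library are given with and without it. In these bulk libraries, fewer cells of a type and less RNA per cell cannot be told apart.

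Of the 161 genes, 34 had no count in any library and 127 had at least 1. Enough counts for the test were found in 63, namely 27 ligands and 36 receptors. Among the ligands, 2 rose, 11 fell and 14 gave no call. Among the receptors, 5 rose, 6 fell and 25 gave no call. Over all genes tested, 16.6% rose and 16.9% fell, 33.5% in either direction. The share that fell was thus 40.7% of the tested ligands and 16.7% of the tested receptors, and the share that rose was 7.41% of the ligands and 13.9% of the receptors. The ligand share cannot be read as a result about ligands as a whole, since entry into the test through a single group favours genes that differ. Of the 27 tested ligands, 8 entered through the vehicle libraries, namely ccl20a.3, ccl25b, ccl38a.4, cxcl12a, cxcl12b, cxcl18b, cxcl8b.1 and cxcl8b.3. They reached the count minimum in both vehicle libraries but not in both lipofermata libraries. The same held for 3 receptors through the vehicle libraries, il2rgb, tnfrsf11a and cxcr4b. It also held for 2 ligands, cxcl19 and il1b, and 4 receptors, tnfrsf11b, ccr9a, cxcr1 and ackr4a, through the lipofermata libraries. The calls and p-values given for such genes share this limit, although the filter does not fix a call. Among such genes, ccl20a.3, cxcl12b, cxcr4b, il1b, cxcr1 and ackr4a did not pass the test over all libraries.

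The median log2 fold change was -0.91 over the tested ligands and -0.13 over the tested receptors, beside -0.03 over all genes tested. The ligands spread from -7.72, the fitted value of ccl25b with 0 counts in its lipofermata libraries, to 5.38, and the receptors from -3.22 to 2.46. At a change of at least 2-fold, 6 members rose and 11 fell, where the shares of all genes were 6.69% and 8.62%. The groups did not overlap in 14 tested members that were higher and 25 that were lower, where the shares of all genes were 32.2% and 32.9%.

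The ligand median depended on the first vehicle library, since it was 0.01 without it. The filter was applied anew in that fit, so the tested ligands are not all the same. For the chemokine ligands alone, the median was -1.41 with all libraries and -1.16 without the first vehicle library. Without that library, 3 ligands rose and 8 fell, and 10 receptors rose and 3 fell, beside 20.1% and 18.7% of all genes. Without the second vehicle library, 2 ligands rose and 16 fell, and 4 receptors rose and 12 fell, beside 16.7% and 16.9% of all genes. Without the first lipofermata library 4 members rose and 11 fell, beside 7.24% and 8.24% of all genes, and without the second 3 rose and 13 fell, beside 8.50% and 9.30%. DESeq2 called 4 members higher and 11 lower, beside 11.5% and 11.7% of all genes, and made no call for mif, tnfsf10l, ccl38a.4, cxcl14, csf2rb, tnfrsf11a, tnfrsf11b, ccr9a and il4r.1. Scaling by total counts, which moves the median of all genes by 0.39, called 16 members higher and 9 lower, beside 34.1% and 7.92% of all genes, and made no call for tnfsf10l, ccl38a.4, cxcl14, csf2rb, tnfrsf11a, il13ra1, il23r and il4r.1. With no filter on low counts 7 members rose and 25 fell, beside 12.2% and 12.0% of all genes. The other settings moved the counts less. limma voom called 8 and 17 members, beside 17.2% and 17.5% of all genes, RLE scaling 7 and 17, beside 17.0% and 16.6%, and a minimum of 0.5 CPM in 2 libraries 7 and 17, beside 16.2% and 16.3%. Halved counts gave 7 and 15, beside 18.5% and 19.0% of all genes, and the fit with a block for the replicate number 8 and 16, beside 18.5% and 18.3%.

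**Figure D1:**
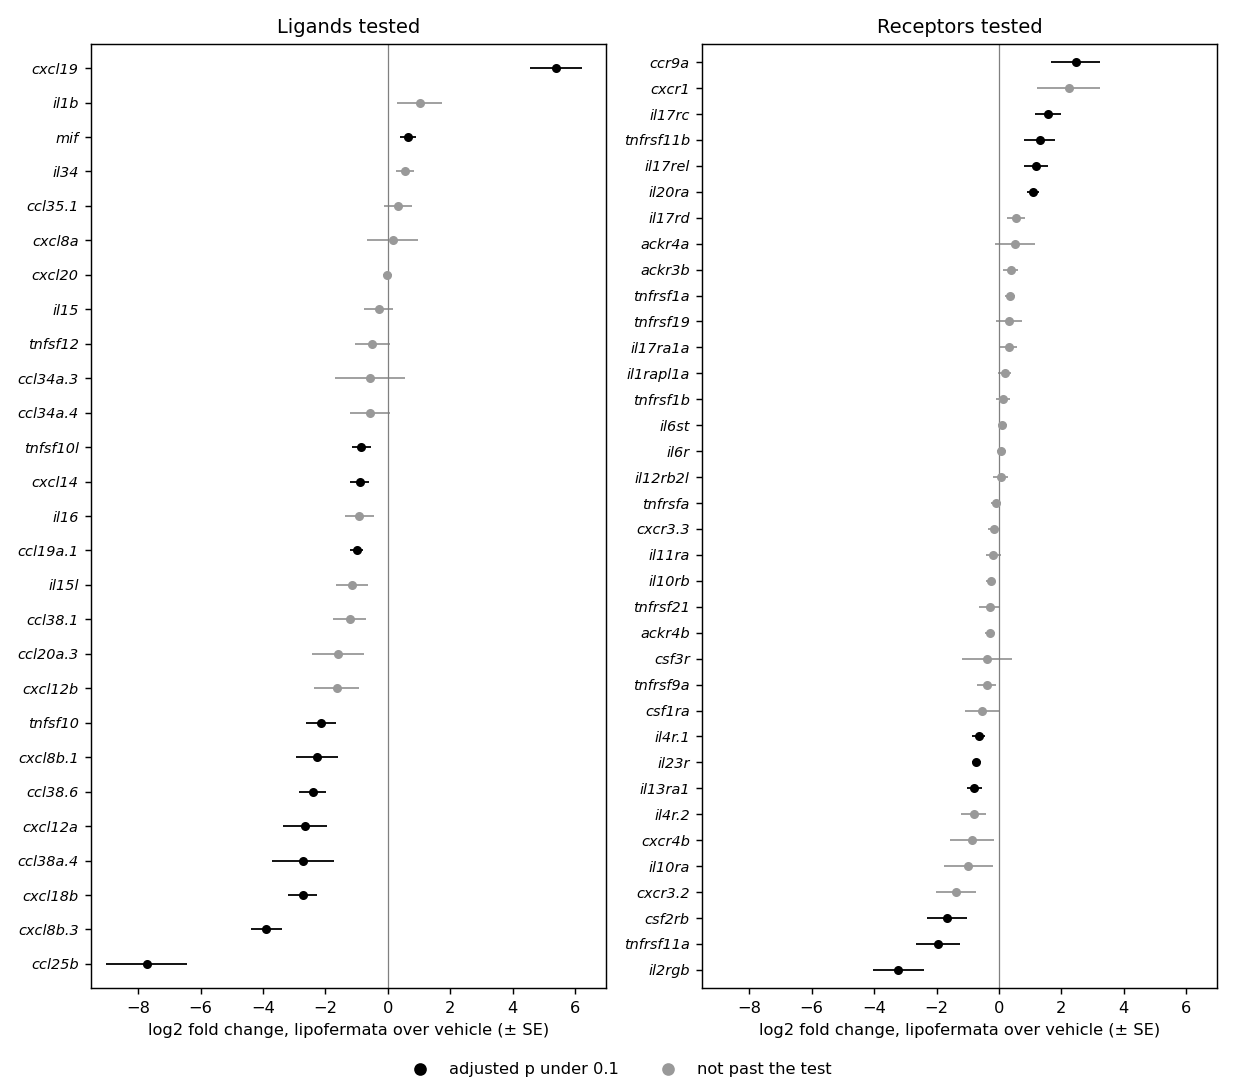
Log2 fold change of lipofermata over vehicle with its standard error for the 27 tested ligands and the 36 tested receptors, in black where the edgeR adjusted p was under 0.1. The ligands reach from -7.72 to 5.38 and most lie below 0, while the receptors lie on both sides.

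The chemokine ligands held 10 of the 13 calls among ligands. Of 50 such genes, 13 had no count, 18 were tested, 9 fell and 1 rose, with a median of -1.41, where 16.9% of all genes fell and 16.6% rose. As 8 of the 18 reached the count minimum in both vehicle libraries but not in both lipofermata libraries, and 6 of the 9 that fell are among them, this count and median are a description and no result about the family. Their summed level was 87.2 and 80.2 CPM with lipofermata, against 131 and 116 CPM with vehicle.

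Among genes of the interleukin-8 type, whose products attract neutrophils, cxcl8b.3 and cxcl8b.1 fell and cxcl8a did not pass the test. cxcl8b.3 (ENSDARG00000099169) had 0.999 and 0.219 CPM with lipofermata, against 7.76 and 11 CPM with vehicle. The groups lay far apart, and the log2 fold change was -3.90 ± 0.50 (SE, edgeR adjusted p = 5.2e-04), or -5.37 without the first lipofermata library and -3.22 without the second. Its paralog cxcl8b.1 (ENSDARG00000102299) had 0.200 and 0.548 CPM with lipofermata, against 1.66 and 1.96 CPM with vehicle, a change of -2.27 ± 0.67 (SE, edgeR adjusted p = 0.033). The call for cxcl8b.1 was lost without the first lipofermata library, and its change was -3.13 without the second. The third gene, cxcl8a, had 0.800 and 0.438 CPM with lipofermata and 0.887 and 0.163 CPM with vehicle, and the groups overlapped. Its change was 0.16, or 1.89 without the first vehicle library. cxcl18b (ENSDARG00000075045), a fish chemokine that attracts neutrophils, had 0.50 and 0.876 CPM with lipofermata, against 5.05 and 4.08 CPM with vehicle. It fell by 2.73 ± 0.45 on the log2 scale (SE, edgeR adjusted p = 0.0021).

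On the chromosome, cxcl8b.3 and cxcl8b.1 neighbour cxcl19 in the RefSeq gene order of GRCz12tu, with no more than 3 protein-coding genes between one and the next, and cxcl19 moved the other way. cxcl19 (ENSDARG00000102776) had 46 and 68 counts with lipofermata, against 2 and 0 with vehicle. That is 2.30 and 3.72 CPM, against 0.111 and 0 CPM. The ratio of the scaled counts was 45.1, with a 95% counting interval of 12.2 to 377. Most low counts in these libraries are even, and on halved counts the interval was 7.78 to 1812. The fitted change was 5.38 ± 0.83 (SE, edgeR adjusted p = 0.0015), or 8.67 without the first vehicle library, where it stands against a library at 0. In the fit over all libraries, cxcl19 was the only chemokine ligand of the 18 tested that rose. That it stood alone depended on the first vehicle library being included, while the direction of its own change did not.

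The ligand of Ccr9, ccl25b (ENSDARG00000070873), was found in the vehicle libraries alone. It had 0 and 0 counts with lipofermata, against 34 and 14 counts with vehicle, which is at least 20.2-fold lower when the lipofermata group is given the floor of 3 counts, or at least 10.1-fold on halved counts (edgeR adjusted p = 0.0030). cxcl12a (ENSDARG00000037116), the Cxcr4 ligand that guides migrating cells and vessels, had 0.0999 and 0.986 CPM with lipofermata, against 3.33 and 3.43 CPM with vehicle. It fell by 2.65 ± 0.71 on the log2 scale (SE, edgeR adjusted p = 0.022), and the size was set by the lipofermata libraries, at -1.77 without the first and -4.98 without the second. Its paralog cxcl12b had 0.200 and 0.657 CPM with lipofermata, against 1.22 and 1.47 CPM with vehicle, and its change of -1.64 ± 0.72 did not pass the test (SE, edgeR adjusted p = 0.12). cxcl18b, ccl25b, cxcl12a and tnfsf10 are genes that the study itself chose from these libraries, so that all 4 fell is not independent evidence of a direction.

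Of the CC chemokines, ccl19a.1 (ENSDARG00000058389), whose mammalian counterpart binds CCR7, had 7.80 and 11 CPM with lipofermata, against 18.9 and 18.9 CPM with vehicle. It fell by 1.0 ± 0.21 on the log2 scale (SE, edgeR adjusted p = 0.0065). The neighbours ccl38.6 and ccl38a.4 both fell. ccl38.6 (ENSDARG00000041923) had 1.30 and 0.657 CPM with lipofermata, against 6.04 and 4.41 CPM with vehicle, and changed by -2.41 ± 0.43 (SE, edgeR adjusted p = 0.0032). ccl38a.4 had 6 and 0 counts with lipofermata, against 23 and 10 with vehicle, and its change of -2.72 ± 0.99 (SE, edgeR adjusted p = 0.068) was -7.10 without the first lipofermata library. The call was lost without the first vehicle library or the second lipofermata library, where the change was -1.79. ccl38.1 had 1.70 and 0.603 CPM with lipofermata and 2.66 and 2.78 CPM with vehicle, a difference that did not pass the edgeR test over all libraries and did so without the first lipofermata library. The sequences of these genes were not compared. Related genes may share reads, and then their split is uncertain.

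cxcl14 (ENSDARG00000056627) had 5.30 and 3.29 CPM with lipofermata, against 7.15 and 9.06 CPM with vehicle, and changed by -0.91 ± 0.30 (SE, edgeR adjusted p = 0.050), a call that was lost without the second lipofermata library. The ligand with the highest CPM, cxcl20, did not differ beyond its spread, with 54.3 and 46.2 CPM with lipofermata and 51.6 and 50.1 CPM with vehicle. ccl34a.4 had 3.05 and 4.16 CPM with lipofermata and 9.31 and 1.14 CPM with vehicle, so that the vehicle libraries enclosed the lipofermata libraries, and it passed the test in opposite directions without the first and without the second vehicle library. ccl35.1 had 6.2 and 3.83 CPM with lipofermata and 5.88 and 1.96 CPM with vehicle.

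**Figure D2:**
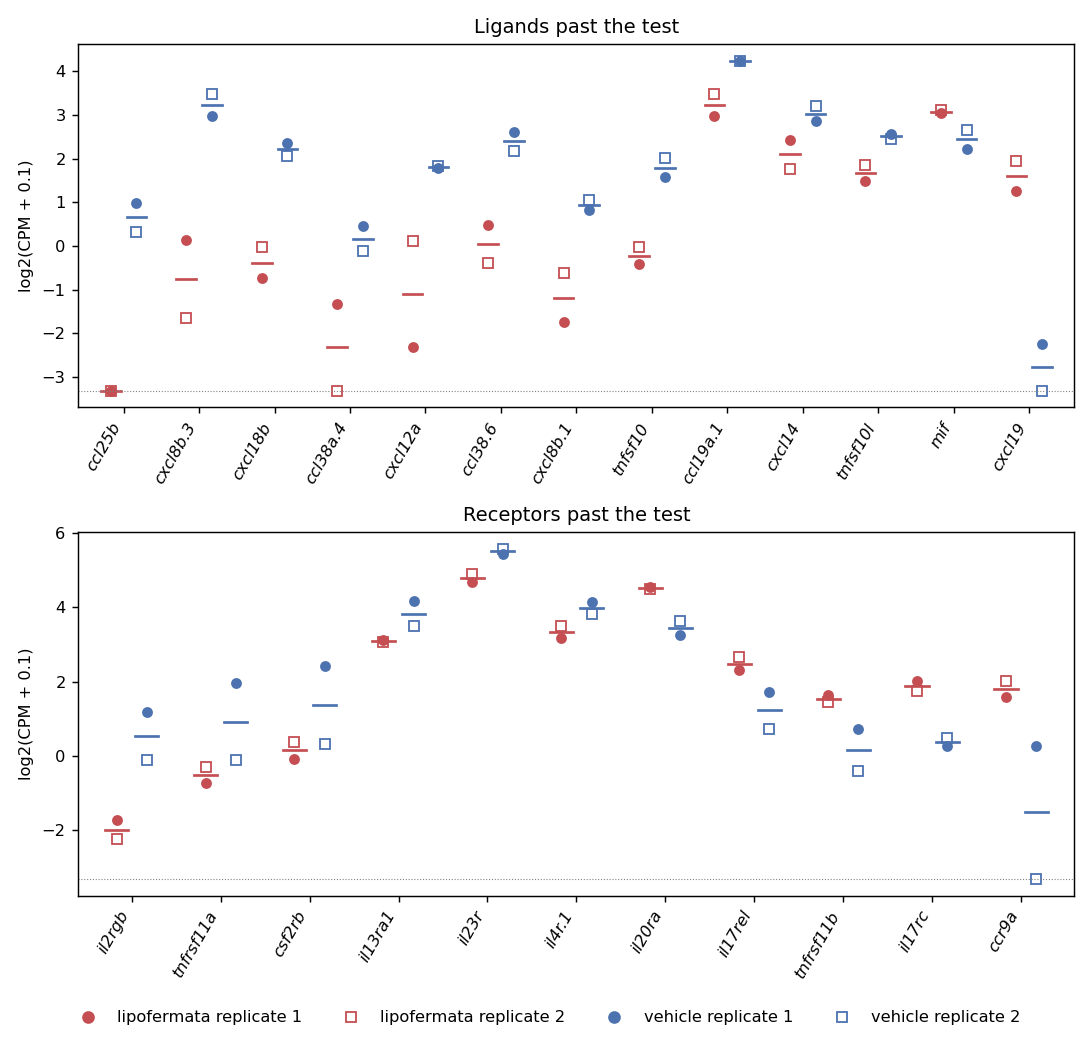
Level of the 13 ligands and 11 receptors that passed the test in each library, as log2(CPM + 0.1), with circles for replicate 1, squares for replicate 2 and bars for the mean of 2 libraries. The dotted line marks 0 CPM, where both lipofermata libraries of ccl25b lie, while cxcl19 is the reverse with 2.30 and 3.72 CPM against 0.111 and 0 CPM.

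Of 12 TNF ligands, 3 were tested and 2 fell, where 16.9% of all genes fell. tnfsf10 (ENSDARG00000057241), which encodes the death ligand TRAIL, had 0.650 and 0.876 CPM with lipofermata, against 2.88 and 3.92 CPM with vehicle. The change was -2.14 ± 0.48 (SE, edgeR adjusted p = 0.0092). Its relative tnfsf10l had 2.70 and 3.51 CPM with lipofermata, against 5.82 and 5.39 CPM with vehicle, a change of -0.86 ± 0.31 (SE, edgeR adjusted p = 0.065) whose call was lost without the first vehicle library or either lipofermata library. tnfsf12, the TWEAK gene, had 1.60 and 1.86 CPM with lipofermata and 3.71 and 1.06 CPM with vehicle, and its groups overlapped, with a call at -1.10 without the second vehicle library.

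Of 24 interleukin genes 5 were tested and 0 passed the edgeR test, as was the case with DESeq2, with limma voom and at an unadjusted p under 0.05, although il34 passed with total counts as the scaling and il16 without the second vehicle library. il1b, the inflammatory interleukin-1β, had 0.700 and 1.64 CPM with lipofermata and 0.776 and 0.327 CPM with vehicle. il15, which maintains lymphocytes in mammals, had 2.40 and 2.03 CPM with lipofermata and 3.77 and 1.55 CPM with vehicle. il34, a ligand of the macrophage receptor Csf1r, had 5.25 and 5.81 CPM with lipofermata and 3.77 and 3.76 CPM with vehicle; its groups lay apart but the change of 0.55 ± 0.29 did not pass the test (SE, edgeR adjusted p = 0.18). mif (ENSDARG00000071336), the macrophage migration inhibitory factor, rose with 8.10 and 8.55 CPM with lipofermata, against 4.55 and 6.21 CPM with vehicle. Its change of 0.64 ± 0.26 (SE, edgeR adjusted p = 0.094) was past the threshold in the fit over all libraries and was lost without the first vehicle library or either lipofermata library.

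Among 30 interleukin receptor genes, 17 were tested, 3 rose and 4 fell, beside 16.6% and 16.9% of all genes. il20ra (ENSDARG00000032571), a receptor subunit for interleukins of the IL-20 group, had 23.3 and 22.6 CPM with lipofermata, against 9.37 and 12.4 CPM with vehicle. It rose by 1.08 ± 0.19 on the log2 scale (SE, edgeR adjusted p = 0.0026). The other 2 that rose were interleukin-17 receptor genes. il17rc (ENSDARG00000099902), which in mammals forms the IL-17 receptor with IL17RA, had 3.95 and 3.23 CPM with lipofermata, against 1.11 and 1.31 CPM with vehicle, and changed by 1.58 ± 0.41 (SE, edgeR adjusted p = 0.020). il17rel (ENSDARG00000089131) had 4.90 and 6.19 CPM with lipofermata, against 3.22 and 1.55 CPM with vehicle, and changed by 1.18 ± 0.38 (SE, edgeR adjusted p = 0.044). The call of il17rc was lost without the first lipofermata library and that of il17rel without the second, and the change of il17rel was 1.84 without the first vehicle library. The relatives il17ra1a, with 5.30 and 5.92 CPM with lipofermata and 4.32 and 4.74 CPM with vehicle, and il17rd, with 5.30 and 5.92 CPM with lipofermata and 4.44 and 3.18 CPM with vehicle, did not pass the test over all libraries, but both did with total counts as the scaling, and il17rd without the first vehicle library.

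Those that fell included il13ra1 and il4r.1, whose mammalian counterparts form a receptor for interleukin-4 and interleukin-13. il13ra1 (ENSDARG00000080020) had 8.59 and 8.33 CPM with lipofermata, against 18 and 11 CPM with vehicle, a change of -0.79 ± 0.24 (SE, edgeR adjusted p = 0.037). il4r.1 (ENSDARG00000102583) had 8.89 and 11.2 CPM with lipofermata, against 17.5 and 14.0 CPM with vehicle, a change of -0.65 ± 0.21 (SE, edgeR adjusted p = 0.043). Both calls were lost without the first vehicle library or the first lipofermata library, and that of il13ra1 also without the second lipofermata library. The neighbouring gene il4r.2 had 1.45 and 2.19 CPM with lipofermata and 3.22 and 3.18 CPM with vehicle, and its change of -0.82 did not pass the test. il23r (ENSDARG00000052158), an interleukin-23 receptor gene, had 25.7 and 29.7 CPM with lipofermata, against 43.6 and 47.9 CPM with vehicle. It fell by 0.72 ± 0.15 on the log2 scale (SE, edgeR adjusted p = 0.0060), a call lost without the first lipofermata library. il2rgb (ENSDARG00000053702), a gene of the common γ chain of lymphocyte interleukin receptors, had 4 and 2 counts with lipofermata, against 39 and 10 with vehicle, and changed by -3.22 ± 0.82 (SE, edgeR adjusted p = 0.017). Its call was lost without the first vehicle library, where the change was -2.33, and without the second lipofermata library.

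The interleukin receptors il6r, il6st and il10rb, of high CPM, did not pass the test over all libraries, but il6r and il6st did with total counts as the scaling and il10rb without the first vehicle library. il6r, the interleukin-6 receptor of hepatocytes in mammals, had 136 and 134 CPM with lipofermata and 128 and 129 CPM with vehicle, a change of 0.08 ± 0.14 (SE, edgeR adjusted p = 0.73). il6st, the signalling subunit gp130, had 127 and 129.9 CPM with lipofermata and 130.3 and 108 CPM with vehicle, a change of 0.11 ± 0.15 (SE, edgeR adjusted p = 0.63). il10rb, shared by the interleukin-10 and interleukin-22 receptors in mammals, had 21.3 and 23.6 CPM with lipofermata and 24.9 and 29.2 CPM with vehicle.

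Of 10 TNF receptor genes, 8 were tested, 1 rose and 1 fell, beside 16.6% and 16.9% of all genes. The calls fell on a pair with opposite directions. tnfrsf11b (ENSDARG00000098377), which encodes the decoy receptor osteoprotegerin, had 3.0 and 2.63 CPM with lipofermata, against 1.55 and 0.653 CPM with vehicle. It changed by 1.30 ± 0.50 (SE, edgeR adjusted p = 0.083), or 2.1 without the first vehicle library, and the call was lost without the second vehicle library or either lipofermata library. tnfrsf11a (ENSDARG00000087804), which encodes RANK, the signalling receptor of the same ligand, had 0.50 and 0.712 CPM with lipofermata, against 3.77 and 0.817 CPM with vehicle. Its change was -1.95 ± 0.71 (SE, edgeR adjusted p = 0.071), and -0.42 with no call without the first vehicle library. This call was also lost without either lipofermata library. The receptors of TNF itself did not pass the test over all libraries, and tnfrsf1a did so, higher with lipofermata, without the first vehicle library, at 0.60. tnfrsf1a had 28.9 and 29.0 CPM with lipofermata and 25.7 and 19.3 CPM with vehicle, and tnfrsf1b had 8.94 and 13.1 CPM with lipofermata and 10.5 and 9.47 CPM with vehicle. tnfrsfa, a zebrafish receptor gene of the TRAIL signal, had 24.0 and 20.9 CPM with lipofermata and 25.5 and 22.5 CPM with vehicle.

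Among 22 chemokine receptor genes, 5 were tested, and ccr9a rose, where 16.6% of all genes rose. ccr9a (ENSDARG00000055186) had 58 and 72 counts with lipofermata, against 20 and 0 with vehicle, which is 2.90 and 3.94 CPM, against 1.11 and 0 CPM. The change was 2.46 ± 0.79 (SE, edgeR adjusted p = 0.044), it was 1.62 without the second vehicle library and 8.85 without the first, against a library at 0, and the call was lost without the second lipofermata library. cxcr3.3 had 12 and 16.3 CPM with lipofermata and 15.4 and 16.2 CPM with vehicle. None of the 3 tested atypical receptors passed the edgeR test, DESeq2, limma voom or an unadjusted p under 0.05, among them ackr4b with 17.2 and 19.3 CPM with lipofermata and 23.0 and 21.8 CPM with vehicle.

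Ligand and receptor genes of the same signal are set side by side here, and no difference between a ligand and its receptor was tested. ccl25b was at 0 counts with lipofermata, where its receptor gene ccr9a rose. cxcl12a fell, while the change was -0.86 ± 0.71 in its signalling receptor gene cxcr4b (SE, edgeR adjusted p = 0.41) and 0.38 in the scavenger receptor gene ackr3b. cxcr4b had 0.50 and 1.53 CPM with lipofermata and 2.77 and 0.817 CPM with vehicle, and it passed the test without the second vehicle library, at -1.45. ackr3b had 9.79 and 7.67 CPM with lipofermata, against 7.32 and 6.04 CPM with vehicle, and passed the test with total counts as the scaling but not with TMM. cxcl8b.3, cxcl8b.1 and cxcl18b fell, and cxcr1, a receptor of interleukin-8, had 14 and 10 counts with lipofermata and 4 and 0 with vehicle, with a change of 2.23 ± 1.01 that did not pass the test (SE, edgeR adjusted p = 0.13). The change of cxcr1 was 1.47 without the second vehicle library, and it passed without the first, at 6.41 against a library at 0. The other receptor gene of that kind, cxcr2, had no count in any library.

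For further signals the receptor genes were measured and the ligand genes hardly so. il10 had no count in any library, and its receptor gene il10ra had 10 and 12 counts with lipofermata and 34 and 4 with vehicle. il6 had 0 and 2 counts with lipofermata and 0 and 0 with vehicle, beside il6r and il6st at over 100 CPM in each library. tnfsf11, the ligand gene of tnfrsf11a and tnfrsf11b, had 4 and 0 counts with lipofermata and 0 and 4 with vehicle. il4 and il13 had no count in any library, where il4r.1 and il13ra1 fell. csf3r, the receptor gene of the neutrophil growth factor, had 8 and 20 counts with lipofermata and 28 and 4 with vehicle, so its groups overlapped. Its change was -0.40, or 1.18 without the first vehicle library and -1.06 without the second. il11ra had 6.90 and 5.92 CPM with lipofermata and 7.48 and 7.02 CPM with vehicle, a difference that did not pass the test.

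**Figure D3:**
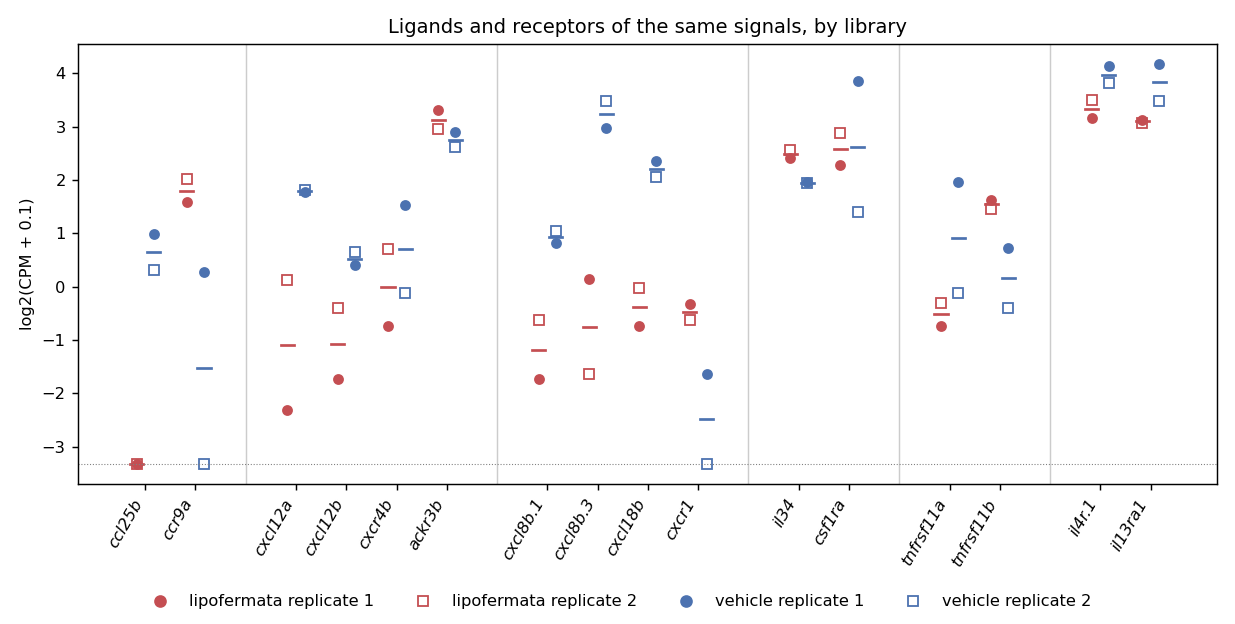
Ligand and receptor genes of the same signals by library, as log2(CPM + 0.1), with the lipofermata libraries left of the vehicle libraries. ccl25b lies at 0 CPM in both lipofermata libraries where ccr9a has 2.90 and 3.94 CPM, and csf1ra spans 14.4 and 2.53 CPM in the vehicle libraries.

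Receptors of the myeloid lineage followed the first vehicle library. csf1ra (ENSDARG00000102986), the receptor that macrophages need for survival, had 4.75 and 7.29 CPM with lipofermata and 14.4 and 2.53 CPM with vehicle. The vehicle libraries enclosed the lipofermata libraries, and the change was -0.53 ± 0.56 (SE, edgeR adjusted p = 0.53). It was 1.25 without the first vehicle library and -1.26 without the second, and passed the test in opposite directions. csf2rb (ENSDARG00000076586), the shared β subunit of receptors for myeloid growth factors in mammals, had 0.850 and 1.21 CPM with lipofermata and 5.27 and 1.14 CPM with vehicle. It was called, at -1.67 ± 0.64 (SE, edgeR adjusted p = 0.083), although its groups overlapped, and its change was -0.15 without the first vehicle library and -2.36 without the second. The call was lost without the first vehicle library or either lipofermata library. cxcr3.2, a receptor gene of macrophages in zebrafish, had 0.700 and 2.30 CPM with lipofermata and 5.93 and 1.63 CPM with vehicle, with a change of -1.37 that did not pass the test. Its change was -0.12 without the first vehicle library, and it passed the test at -1.99 without the second and at -2.44 without the second lipofermata library.

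**Figure D4:**
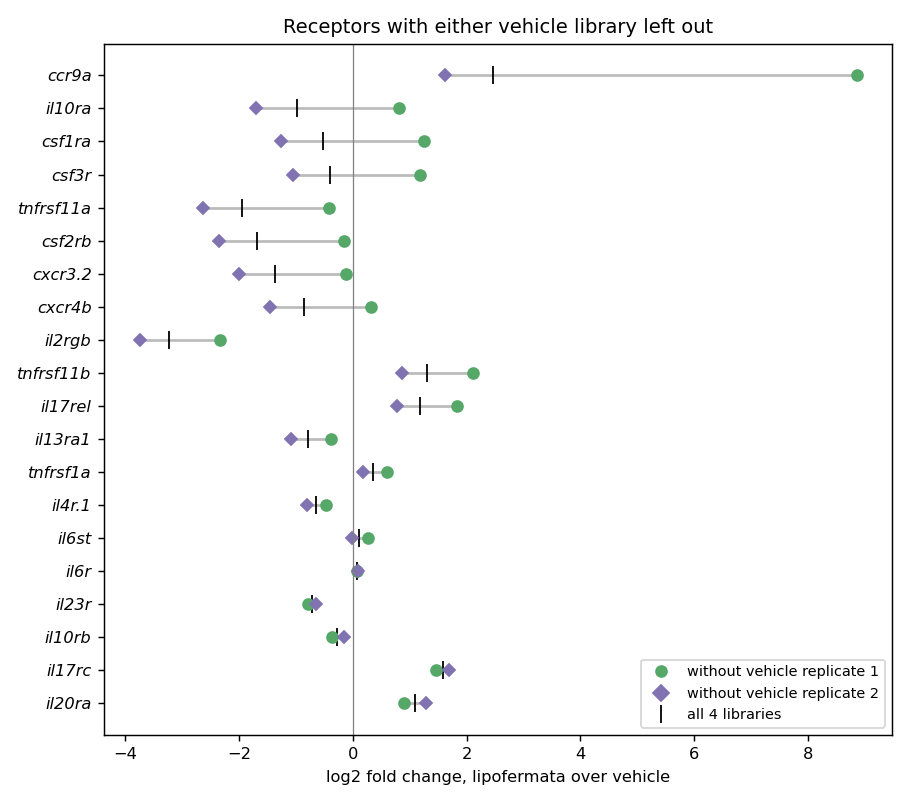
Log2 fold change of the 11 receptors that passed the test and of 9 others without the first vehicle library (circles), without the second (diamonds) and with all 4 libraries (ticks). csf1ra lies at 1.25 without the first and at -1.26 without the second, while il20ra keeps its side of 0.

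Most macrophage markers also followed the first vehicle library. All 16 tested markers of the list were higher in the first vehicle library than in the second, 13 of them at least 2-fold. The summed level of the list was 205 and 186 CPM with lipofermata and 259 and 129 CPM with vehicle. Much of this sum came from slc37a2 and lygl1. slc37a2, the marker that rose, had 59.96 and 47.3 CPM with lipofermata, against 29.0 and 23.6 CPM with vehicle. Its change was 1.02 ± 0.17 (SE, edgeR adjusted p = 0.0022). lygl1 had 98.3 and 87.7 CPM with lipofermata and 89.4 and 61.4 CPM with vehicle, so the sum does not stand for the other markers. mpeg1.1, a perforin gene of macrophages, had 3.2 and 4.27 CPM with lipofermata and 9.09 and 2.78 CPM with vehicle, and marco, a scavenger receptor gene, had 5.70 and 4.38 CPM with lipofermata and 24.0 and 4.16 CPM with vehicle. By contrast, itgb2 had 2.45 and 3.18 CPM with lipofermata, against 10.9 and 8.003 CPM with vehicle, a vehicle ratio of 1.36. It changed by -1.76 ± 0.29 (SE, edgeR adjusted p = 0.0021). Among the 16 tested markers, the groups did not overlap in 5 that were lower and 1 that was higher. With all libraries 1 macrophage marker rose and 7 fell, beside 16.6% and 16.9% of all genes, with a median of -1.13. The median was 0.28 without the first vehicle library and -1.94 without the second, over the markers tested in each fit. Their part in the receptor results was not tested.

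Markers of other cells also differed between the groups. The counts of calls given for them stand beside 16.6% of all genes tested that rose and 16.9% that fell. Of 20 tested endothelial markers 18 fell and 0 rose, with a median of -1.69 and a summed level of 276 and 262 CPM with lipofermata, against 993 and 874 CPM with vehicle, and of 13 tested stellate, mural and fibroblast markers 9 fell and 0 rose, with 142 and 221 CPM with lipofermata, against 377 and 525 CPM with vehicle. tie1, an endothelial receptor kinase gene, changed by -2.60 and stab1, a scavenger receptor gene of sinusoidal endothelium, by -2.97. Of 10 tested neutrophil markers 1 rose and 2 fell. mmp13a rose, with 100 and 195 counts with lipofermata, against 2 and 0 with vehicle. npsn fell, with 4 and 0 counts with lipofermata, against 28 and 27 with vehicle, and srgn changed by -1.27. The neutrophil gene mpx had 19.7 and 43.3 CPM with lipofermata and 31.9 and 27.8 CPM with vehicle, and did not pass the test. The defining neutrophil gene lyz was listed at 0 in all libraries. Of 14 genes on the lymphocyte list 13 were under 1.5 CPM in each library. The other, cd3eap, is not specific to lymphocytes and had 11.3 and 11.3 CPM with lipofermata and 10.1 and 11.4 CPM with vehicle. Besides cd3eap, tagapa was tested, with 4 and 10 counts with lipofermata and 12 and 2 with vehicle. Of these 2, 0 were called by edgeR, DESeq2 or limma voom and 0 at an unadjusted p under 0.05. The list thus cannot show whether lymphocyte RNA changed. The T cell kinase gene lck stood at 0.0999 and 0 CPM with lipofermata and 0.0554 and 0.490 CPM with vehicle. Hepatocyte markers had 1 rise and 7 falls among 16, biliary markers 3 and 2 among 8, and erythroid markers 1 and 0 among 4. Epidermal markers had 0 and 2 among 5, muscle markers 0 and 2 among 3, and pancreas and intestine markers 1 and 0 among 8. The muscle median was -3.03 with all libraries and 0.20 without the first vehicle library, over the markers tested in each fit. The part of these cell types in the ligand results was not tested.

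Inside the cell, the mediators that cytokine receptors use gave 0 genes that rose, 10 that fell and 31 that did not pass the test among 41 tested. Their median was -0.18, and over all genes tested 16.6% rose and 16.9% fell. Among those that fell, the NF-κB inhibitors nfkbib, nfkbiab and nfkbiaa changed by -0.76, -0.80 and -0.87 on the log2 scale. The NF-κB subunit genes relb and nfkb2 also fell, with -0.60 and -0.45. So did stat1b, stat1a, stat2 and jak3, with -3.41, -0.43, -0.55 and -2.17. socs3a, a feedback inhibitor of STAT signalling, changed by -0.88, while socs3b changed by 0.17 and did not pass the test. stat3 had 25 and 29.1 CPM with lipofermata, against 21.9 and 21.7 CPM with vehicle, and did not pass the test. With total counts as the scaling, 10 of the mediators rose and 4 fell, beside 34.1% and 7.92% of all genes. The mediators that rose were also 0 by DESeq2, by limma voom and at an unadjusted p under 0.05.

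Of 19 tested genes that act below chemokine receptors, 3 rose and 4 fell, beside 16.6% and 16.9% of all genes, with a median of -0.09. gnai2b, a G protein subunit gene, had 3.65 and 3.40 CPM with lipofermata, against 16.7 and 19.8 CPM with vehicle, a change of -2.37 (edgeR adjusted p = 9.4e-05), and elmo1, a Rac activator gene, fell by 0.73 on the log2 scale. rac2, the Rac gene of leukocytes, had 20.9 and 21.7 CPM with lipofermata, against 12.8 and 12.2 CPM with vehicle, and rose by 0.77 (edgeR adjusted p = 0.0077). gnai3 rose by 1.05.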

How the data were processed

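RNA of livers from 2 lipofermata and 2 vehicle pools was sequenced. The authors deposited raw counts per gene, made with HISAT2, GRCz11 and featureCounts per the submitters' processing notes. Their versions, annotation and strand setting were not given in the sources used here, so overlapping genes on opposite strands are uncertain. Among counts of 1 to 50, 74.3% to 75.3% were even in each library. Of the rows, 28 had no gene name, and an EGFP row held 5879 to 14749 counts.

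Members and gene lists were chosen with earlier results of these data known. Receptors were genes named ccr, cxcr, ackr, tnfrsf, il6st, or il or csf with r after the number, and the other members were ligands. The test was edgeR 4.0.16 in R 4.3.3 (TMM, filterByExpr with a minimum count of 10, Benjamini-Hochberg over 14925 of 22295 genes with counts, threshold 0.1), and plots were made with matplotlib 3.10.9 in Python 3.11.15. The SE is the fold change over the square root of F. Bounds use 3 counts over the group without counts and take the count of the other group as exact, so its counting error is not covered. Neither bounds nor intervals cover more than counting error. Replicates spread beyond counting error: chi-square over degrees of freedom was 12.7 in lipofermata and 21.7 in vehicle. The procedure was tested on simulated data. Neighbours come from RefSeq GRCz12tu, used for gene order alone.

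Named genes were the members past the threshold, the 5 ligands and 5 receptors with the highest CPM, and ligand and receptor pairs. The members the study names were added. Up to 4 genes of each other list and direction with the smallest p were planned as well, but many of these are not named. Other genes were chosen after their values were seen. A gene that the rule selects is not reported here. Alternatives were DESeq2 1.42.0, limma 3.58.1 (voom), RLE, total counts, no filter, 0.5 CPM in 2 libraries, each library left out, a replicate block and, chosen after seeing the data, halved counts.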

Additional observations from a re-analysis of the deposited data

How the results depend on the processing

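Of the 24 members that passed the test, 9 did so under every alternative that tested them: tnfsf10, ccl19a.1, ccl25b, ccl38.6, cxcl12a, cxcl18b, cxcl19, cxcl8b.3 and il20ra. Of these, ccl25b, cxcl12a, cxcl18b and cxcl8b.3 reached the count minimum in both vehicle libraries but not in both lipofermata libraries. The reverse held for cxcl19. Entry through a single group favours genes that differ, so their repeated calls are not independent of the filter. ccl25b could not be tested without the first vehicle library or with halved counts. DESeq2 called 15 of the 24 members and no other, with 4 members higher and 11 lower, ligands 1 higher, and receptors 3 higher and 3 lower. Scaling by total counts gave 5092 genes higher and 1182 lower (34.1% and 7.92%), against 2479 and 2527 with TMM. It gave 16 members higher and 9 lower, and receptors 13 higher and 1 lower with a median of 0.26. The median of all genes was 0.36 in that fit. The sign of the receptor median thus moved with the scaling of all genes, which is no result about receptors. With no filter on low counts, 10 receptors were lower. With halved counts 20 of the 24 calls were made again. Members with no call over all libraries also passed elsewhere, 3 with limma voom (ccl38.1, cxcl12b and cxcr1), 9 with total counts, 8 with no filter, 2 with halved counts, 9 without the first and 11 without the second vehicle library, and 1 and 3 without the first and the second lipofermata library.

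Leaving out each library gave 1128 to 3115 genes higher and 1284 to 2898 lower. Members higher ranged from 3 to 13 and members lower from 11 to 28. Ligands higher ranged from 1 to 3 and lower from 8 to 16, with medians of -1.0 to 0.012. Receptors higher ranged from 2 to 10 and lower from 1 to 12, with medians of -0.38 to 0.13. Without the first vehicle library, csf1ra turned to 1.25, and it was -1.26 without the second. The cause of these moves was not tested.

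Across genes, the correlation of same-numbered deviations was 0.033. With 2 libraries a group this cannot decide whether libraries of the same replicate number are paired. The fit with a replicate block gave 8 members higher and 16 lower, ligands 2 and 12, receptors 6 and 4, all genes 2756 and 2724, and medians of -0.92 for ligands and -0.14 for receptors. Of the 24 calls, 22 were made again, without csf2rb and tnfrsf11a, and ccl38.1 and tnfrsf1a were gained.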

Other observations

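Of the members, 64 had counts but too few for the test with the filter, 39 ligands and 25 receptors. Their highest counts in a library were 35 for a ligand and 52 for a receptor. The untested receptors summed to 64 and 79 counts with lipofermata and 236 and 79 with vehicle, and the untested ligands to 104 and 93 counts with lipofermata and 184 and 61 with vehicle. The first vehicle library had the highest count in 14 of the 25 receptors and in 19 of the 39 ligands. These sums and counts are not scaled, and that library was the largest, with 19368695 counts against 14997821 in the second. The same share over all untested genes is not given here. Examples are the TNF gene tnfb with 6 and 2 counts with lipofermata and 35 and 6 with vehicle, the interleukin-21 receptor gene il21r.1 with 4 and 8 counts with lipofermata and 52 and 6 with vehicle, and ccr12a with 4 and 8 counts with lipofermata and 46 and 4 with vehicle. csf1rb, the paralog of csf1ra, had 0 and 6 counts with lipofermata and 24 and 6 with vehicle, and csf1b, which encodes a ligand of these receptors, had 20 and 6 counts with lipofermata and 6 and 2 with vehicle. With no filter on low counts, tnfb, il21r.1, ccr12a and csf1rb passed the test.

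Counts in one group alone were seen for il17c, an epithelial interleukin-17 in mammals, with 14 and 1 counts with lipofermata, against 0 and 0 with vehicle, at least 3.96-fold higher against the floor of 3 counts over the group. il1fma had 0 and 0 counts with lipofermata, against 12 and 4 with vehicle, at least 6.74-fold lower. On halved counts the bounds were 1.98-fold and 3.37-fold. These genes were chosen after their values were seen, and with no filter on low counts il1fma passed the test and il17c did not. Among the members with no count in any library were il10, csf1a, ccl25a, ccr9b, cxcr2 and ackr3a.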
